A study of Mus musculus with 32 samples.

Results

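The genes described are 9 enzymes of glycolysis and lactate formation (Hk1, Hk2, Gpi1, Pfkl, Pfkm, Aldoa, Pgk1, Pkm and Ldha) together with Hif1a, which encodes the oxygen-regulated subunit of a transcription factor that acts on many of them. They were chosen by gene symbol, and all 10 were listed: as 10 of 13377 genes (32 of 34865 transcripts) in the female table and as 10 of 11999 genes (26 of 28345 transcripts) in the male table. The libraries were made from microglia, the resident macrophages of the central nervous system, sorted by fluorescence-activated cell sorting. The series' title places them in the spinal cord. The label of all 32 libraries gives the genotype Cx3Cr1-Cre;Rosa26-iDTR, in which Cre under the control of Cx3cr1 is switched on by tamoxifen and opens expression of a diphtheria toxin receptor. Diphtheria toxin then kills the recombined cells for a time, and new microglia repopulate the tissue. Cx3cr1 is also used by monocytes and other macrophages, so the driver is not restricted to microglia. Repopulated microglia (treatment label Depletion) and resident microglia (No depletion) were taken at Day 14, with a fracture (condition label Injury) or without one. The sample descriptions call the libraries without depletion Wt in females and WT in males, against Dt and iDTR for those with it. Neither genotype nor exposure to toxin can be told apart from repopulation here. There were 4 repopulated and 4 resident female libraries with fracture, and 3 repopulated and 4 resident female libraries without fracture. The males had 7 repopulated and 5 resident libraries with fracture, and 2 repopulated and 3 resident libraries without fracture. The labels do not say that each library came from a separate animal, so p-values measure the spread between these libraries.

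Glycolysis splits glucose into pyruvate: hexokinases trap glucose as glucose 6-phosphate, phosphofructokinase commits it to breakdown, aldolase cleaves the sugar, and phosphoglycerate kinase and pyruvate kinase return ATP. Lactate dehydrogenase A turns pyruvate into lactate and regenerates NAD+, which lets the pathway run without respiration. Macrophages and microglia raise glycolysis when they are activated. HIF-1 is a dimer of HIF-1α, which is degraded when oxygen is plentiful, and a constant partner, and it induces most glycolysis genes through short hypoxia response elements, so its mRNA level is only part of its control.

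Total estimated counts ran between 16438827 and 18654165 per library in females and between 5722993 and 33697535 in males. The female and male libraries were made by different laboratories with different kits, so sex cannot be told apart from library preparation, and each table was normalised and tested alone. All 8 microglia markers were listed and abundant, with summed levels of 40000 to 44500 CPM (counts scaled to an equal library total) in repopulated and 39500 to 48700 CPM in resident females, and of 45400 to 54100 CPM in repopulated and 52100 to 59200 CPM in resident males. Markers of circulating macrophages moved with repopulation: 7 of 10 were listed, with Ccr2, F10 and Ly6c2 not listed. Their sums were 5940 to 10700 CPM in repopulated and 1500 to 1900 CPM in resident female libraries with fracture, and 6220 to 14700 CPM in repopulated and 1070 to 3900 CPM in resident female libraries without fracture. In males they were 3560 to 12100 CPM in repopulated and 1310 to 2270 CPM in resident libraries with fracture, and 5670 to 12800 CPM in repopulated and 1140 to 1420 CPM in resident libraries without fracture. Most of the sum in every repopulated library was Apoe, an apolipoprotein that activated microglia also make. It was at 4340 to 8720 CPM in repopulated and 836 to 1210 CPM in resident females with fracture. Without Apoe the sums were 1600 to 1940 CPM in repopulated and 624 to 689 CPM in resident females with fracture, and 778 to 1850 CPM in repopulated and 445 to 975 CPM in resident males with fracture, where they overlapped. In females without fracture they were 1220 to 2230 CPM in repopulated and 543 to 959 CPM in resident libraries. In males without fracture they were 928 and 1930 CPM in repopulated and 348 to 433 CPM in resident libraries. Neither sex showed an overlap without fracture. Cell cycle genes ran the other way in females, with sums of 45 to 100 CPM in repopulated and 193 to 341 CPM in resident libraries with fracture. In males without fracture these sums were higher in repopulated (54.2 to 78.3 CPM) than in resident libraries (39.2 to 51.4 CPM). In males with fracture they overlapped, at 13.4 to 78.1 CPM in repopulated and 52.7 to 110 CPM in resident libraries. The 3 listed of 9 T and B cell markers summed to 389 to 461 CPM in repopulated and 545 to 600 CPM in resident females with fracture, and to 312 to 340 CPM in repopulated and 471 to 543 CPM in resident males without fracture. Csf3r, the only listed one of 8 neutrophil markers, was at 1130 to 1250 CPM in repopulated and 856 to 977 CPM in resident females with fracture. The part of these shifts in the results below was not tested. A pair of libraries stood apart from their groups: male repopulated with fracture replicate 1, in which dissociation-response genes summed to 3180 CPM, and female resident without fracture replicate 3, in which Apoe was at 2950 CPM. Results that rest on them are given without them as well. In bulk libraries, fewer cells of a kind and less RNA per cell cannot be told apart. Aldoa, Pgk1, Pkm and Ldha have processed copies elsewhere in the genome, so their counts may have been split and are uncertain to that extent.

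Pkm, the last enzyme of glycolysis, rose in 3 of the 4 comparisons of repopulated with resident libraries, Hif1a and Ldha rose in males without fracture, and Gpi1 rose in females without fracture. Hk1 fell in females with fracture. By edgeR's quasi-likelihood test at a Benjamini-Hochberg adjusted p under 0.05, 2 of the 10 genes were called higher and 0 lower in females without fracture, where 1.56% of all genes were called higher and 0.964% lower (2.53% in all). In females with fracture 0 were called higher and 1 lower, where 1.27% of all genes were called higher and 1.08% lower (2.35% in all). In males without fracture 3 were called higher and 1 lower, against 4.7% and 2.72% of all genes (7.42% in all), and in males with fracture 1 was called higher and 0 lower, against 3.03% and 1.88% (4.91% in all). Fold changes were above 0 for 8, 8, 7 and 7 of the 10 genes in those 4 comparisons, in the same order, while 47.6%, 50%, 47.2% and 49.1% of all genes were above 0. The median log2 fold change of the 10 was 0.29, 0.25, 0.35 and 0.19, set beside -0.019, 0, -0.028 and -0.005 for the whole table. The male median without fracture is the same with Pfkm, which was at 0 in both repopulated libraries, set at its bound. With library totals alone as the scale, 7 of the 10 were above 0 in females without fracture, since Hk2 then lay just under 0, and the other 3 counts were the same. On that scale the calls over all genes were 116 higher and 228 lower in females without fracture (209 higher and 129 lower as normalised), 110 and 276 in females with fracture (170 and 145), 442 and 501 in males without fracture (564 and 326) and 303 and 338 in males with fracture (364 and 225).

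**Figure D1:**
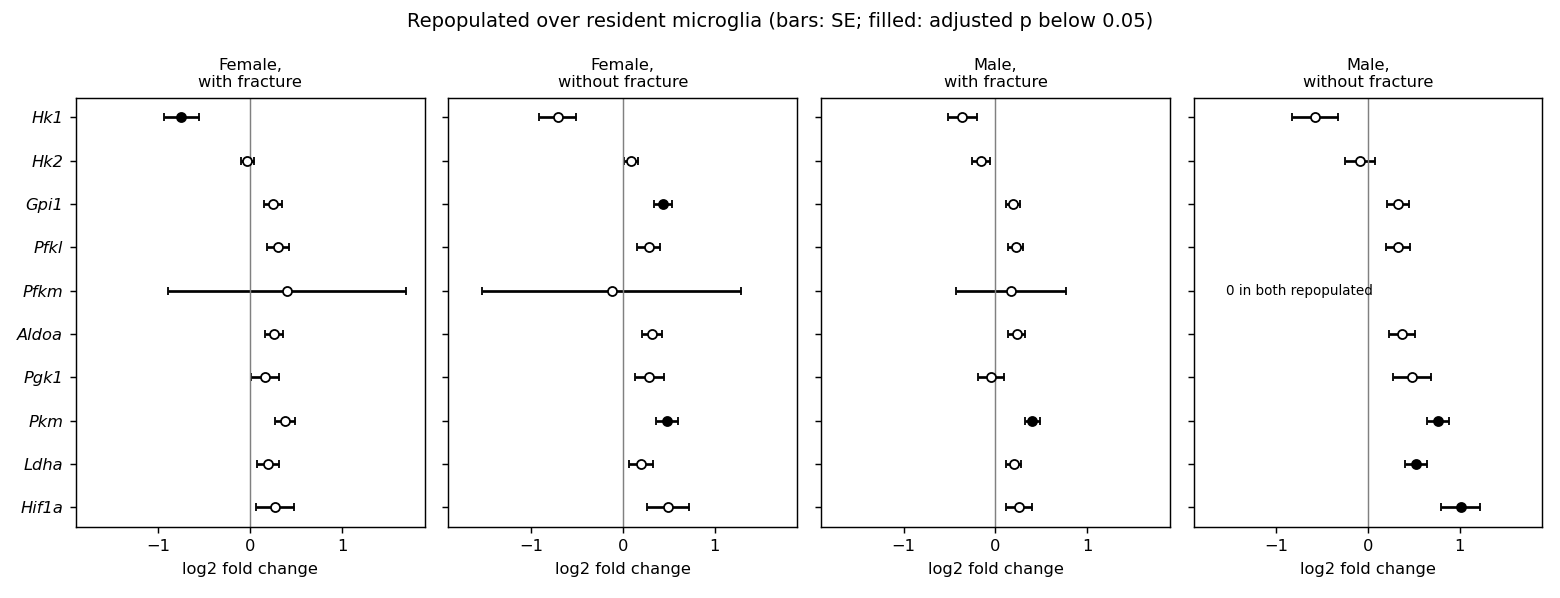
Log2 fold change of each gene, repopulated over resident, with its standard error (horizontal bars), in 4 panels for females and males with and without fracture. Filled points passed an adjusted p under 0.05. Pkm is filled in 3 of the 4 panels, and Hk1 lies below 0 in all 4. Pfkm in males without fracture, at 0 in both repopulated libraries, passed but is marked by text and has no point.

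Per unit of transcript length, Aldoa was the highest of the 10 in both tables, at 449 ± 45.8 TPM (length-scaled counts brought to an equal total) in females (SD, n = 15) and 485 ± 57.5 TPM in males (SD, n = 17). Ldha and Pkm came next. The order of their means differed between the female groups below, and their means ± SD overlapped in all 4 groups shown. In repopulated microglia with fracture Pkm was at 367 ± 21.7 TPM and Ldha at 362 ± 17.1 TPM in females (SD, n = 4), and at 393 ± 37.3 TPM and 338 ± 28.7 TPM in males (SD, n = 7). In resident microglia with fracture Pkm was at 307 ± 24.7 TPM and Ldha at 345 ± 26.9 TPM in females (SD, n = 4), and at 307 ± 24.8 TPM and 305 ± 34.5 TPM in males (SD, n = 5). A middle tier held Hk2, Pfkl, Gpi1, Hif1a and Pgk1, between 64.1 ± 10 TPM for Pgk1 and 127 ± 8.5 TPM for Hk2 in females, and between 56.8 ± 9.66 TPM for Pgk1 and 111 ± 15.4 TPM for Pfkl in males. In that tier Pfkl (98.3 ± 13.1 TPM) and Gpi1 (98.2 ± 13.7 TPM) in females did not differ beyond their spread, nor did Pfkl and Hk2 (108 ± 8.54 TPM) in males. Hk1 was far below Hk2, at 11.6 ± 3.7 TPM in females and 14.3 ± 3.3 TPM in males. Pfkm was the lowest, at 3.58 ± 2.06 TPM in females and 2.28 ± 1.45 TPM in males, with only 1 listed transcript in each table.

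Hexokinases phosphorylate glucose. Hk1 (chr10:62268855-62379908, minus strand, GRCm38) is the widely expressed form that sits on the outer mitochondrial membrane, and Hk2 is the inducible form. In female libraries with fracture, Hk1 was at 21.1, 14.5, 11.3 and 20.6 CPM in repopulated microglia and at 29.6, 31.0, 29.4 and 23.3 CPM in resident microglia. Every repopulated library lay below every resident one, and Hk1 fell by 0.75 on the log2 scale (SE 0.19, adjusted p = 0.0456 by edgeR's quasi-likelihood test). In female libraries without fracture it was at 18.3, 16.7 and 16 CPM in repopulated and at 24.5, 31.5, 30.0 and 25.6 CPM in resident microglia. Those groups did not overlap either, but the log2 fold change of -0.71 ± 0.20 (SE) missed the threshold (edgeR adjusted p = 0.0769). The calls in both female comparisons lay near the threshold: with fracture it was lost in 10 of the 15 fits that left out 1 library, with adjusted p up to 0.125 by edgeR, and without fracture it was made by DESeq2 (adjusted p = 0.0255), with library totals as the scale (-0.80, edgeR adjusted p = 0.046) and without female repopulated with fracture replicate 3 (-0.71, edgeR adjusted p = 0.0424).

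In male libraries with fracture, Hk1 ranged between 15.4 and 36.5 CPM in repopulated microglia (median 29.4, n = 7), against 34.0, 35.5, 42.0, 33.6 and 39.2 CPM in resident microglia. The groups overlapped, and the log2 fold change of -0.36 ± 0.16 (SE) did not pass (edgeR adjusted p = 0.244). Without fracture Hk1 was at 28.1 and 25.9 CPM in repopulated and at 43.2, 35.4 and 42.0 CPM in resident males, with no overlap but a log2 fold change of -0.58 ± 0.25 (SE) that did not pass (edgeR adjusted p = 0.21). Hk2 changed little: its log2 fold changes were -0.03 and 0.09 in females with and without fracture, and -0.16 and -0.09 in males with and without fracture, and none passed.

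The log2 ratio of Hk2 to Hk1 within each library needs no scaling between libraries. In female libraries with fracture it was 3.07, 3.66, 3.89 and 3.27 in repopulated and 2.58, 2.71, 2.69 and 2.89 in resident microglia, a difference of 0.76 (exact permutation test, two-sided, p = 0.0286, the smallest these group sizes allow). All repopulated libraries lay above all resident ones. Without fracture it averaged 3.55 ± 0.09 in repopulated (SD, n = 3) and 2.76 ± 0.26 in resident females (SD, n = 4), again with no overlap (exact permutation p = 0.0571, the smallest possible). Male libraries without fracture averaged 3.02 ± 0.02 in repopulated (SD, n = 2) and 2.52 ± 0.17 in resident microglia (SD, n = 3; exact permutation p = 0.2, the smallest possible), and with fracture 2.92 ± 0.47 in repopulated (SD, n = 7) and 2.66 ± 0.25 in resident microglia (SD, n = 5; exact permutation p = 0.316). Over the 16 ratio tests made, none passed after Benjamini-Hochberg adjustment, with adjusted exact permutation p = 0.305 for both female comparisons.

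**Figure D2:**
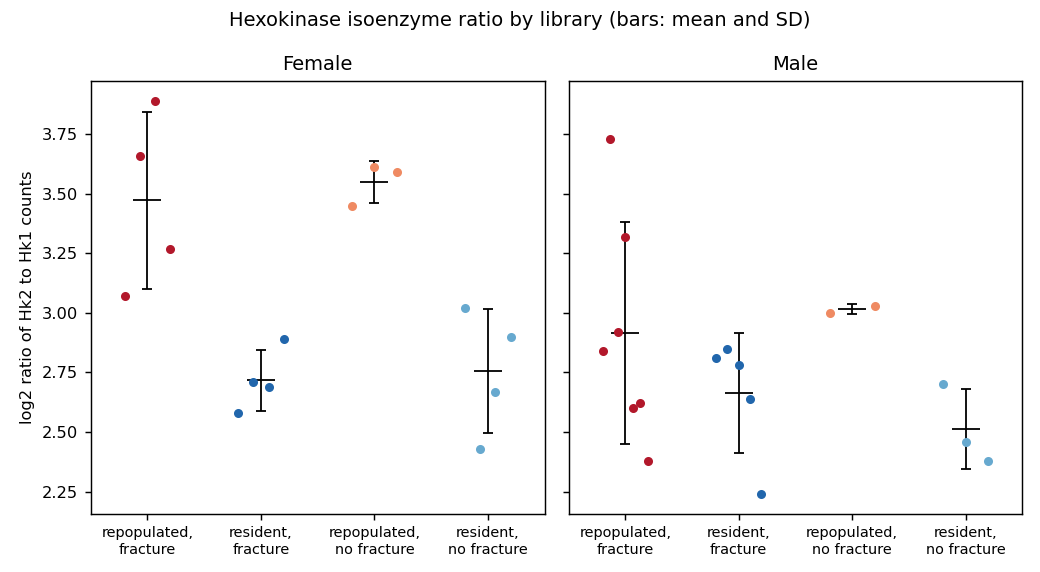
Log2 ratio of Hk2 to Hk1 counts in each library (points) with the group mean and SD (bars), for the 4 female and 4 male groups. In females every repopulated library lies above every resident library of the same injury state, and in males with fracture the groups overlap.

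Gpi1 (chr7:34201330-34230336, minus strand, GRCm38) encodes glucose-6-phosphate isomerase, which turns glucose 6-phosphate into fructose 6-phosphate. In females without fracture it was at 166, 138 and 147 CPM in repopulated and at 102.1, 110, 133 and 96.9 CPM in resident microglia. The groups did not overlap, and Gpi1 rose by 0.44 ± 0.10 on the log2 scale (SE, edgeR adjusted p = 0.0357). Leaving out replicate 1 or 3 of the repopulated or replicate 1, 2 or 4 of the resident females without fracture ended the call (edgeR adjusted p 0.066 to 0.156), and without resident replicate 3 it was 0.54 (edgeR adjusted p = 0.00259). The call was also lost with library totals as the scale (0.36, edgeR adjusted p = 0.0583) and with only the compared groups in the fit (0.43, edgeR adjusted p = 0.238). With fracture it was at 123, 116, 116 and 122 CPM in repopulated and at 95.5, 93.9, 108 and 104 CPM in resident females. These did not overlap, but the log2 fold change of 0.25 ± 0.10 (SE) did not pass (edgeR adjusted p = 0.239). In males the log2 fold changes were 0.19 ± 0.08 with fracture (SE, edgeR adjusted p = 0.237) and 0.33 ± 0.12 without fracture (SE, edgeR adjusted p = 0.135).

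Phosphofructokinase is the committed step, built from liver-type (Pfkl), muscle-type (Pfkm) and platelet-type subunits. Pfkl averaged 154 ± 7.5 CPM in repopulated and 126 ± 13.4 CPM in resident females with fracture (SD, n = 4 each), with no overlap. Its log2 fold changes were 0.30 ± 0.12 and 0.28 ± 0.13 in females with and without fracture and 0.22 ± 0.08 and 0.33 ± 0.13 in males with and without fracture (SE), none of which passed (edgeR adjusted p between 0.153 and 0.3). Pfkm (chr15:98092589-98132451, plus strand, GRCm38) was listed at 0 in both repopulated male libraries without fracture, and at 8.85, 3.53 and 4.62 CPM in the 3 resident male libraries without fracture. It was thus at least 42-fold lower, with a floor of 3 counts over the repopulated group, and passed the test (edgeR adjusted p = 0.00325). This rests on 1 transcript in 2 libraries: the call was lost without repopulated replicate 2 (edgeR adjusted p = 0.05), and single libraries of other groups were also at 0, among them male repopulated with fracture replicate 1 and female repopulated without fracture replicate 2. In female resident with fracture replicate 2 Pfkm was at 0, against 5.64 to 6.71 CPM in the other libraries of that group. Such 0 values go beyond the counting error that the floor covers, and their cause was not tested. With fracture, male Pfkm ranged between 0 and 7.07 CPM in repopulated microglia (median 3.59, n = 7), against 1.82 to 4.52 CPM in resident microglia.

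Aldoa (aldolase A) and Pgk1 (phosphoglycerate kinase 1) act in the middle of the pathway. Aldoa averaged 381 ± 36.9 CPM in repopulated (SD, n = 3) and 305 ± 46.8 CPM in resident females without fracture (SD, n = 4), and 353 ± 19.2 CPM in repopulated and 296 ± 26.6 CPM in resident females with fracture (SD, n = 4 each). Its 4 log2 fold changes lay between 0.23 and 0.37, and none passed (edgeR adjusted p 0.132 to 0.222). Without female resident without fracture replicate 3, where Aldoa was at 374 CPM, it rose by 0.43 in females without fracture (edgeR adjusted p = 0.0108). Without male repopulated without fracture replicate 1, which leaves 1 repopulated library, the Aldoa log2 fold change in males without fracture was 0.57. Pgk1 had log2 fold changes of 0.16 and 0.29 in females with and without fracture and of -0.05 and 0.48 in males with and without fracture, and none passed.

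**Figure D3:**
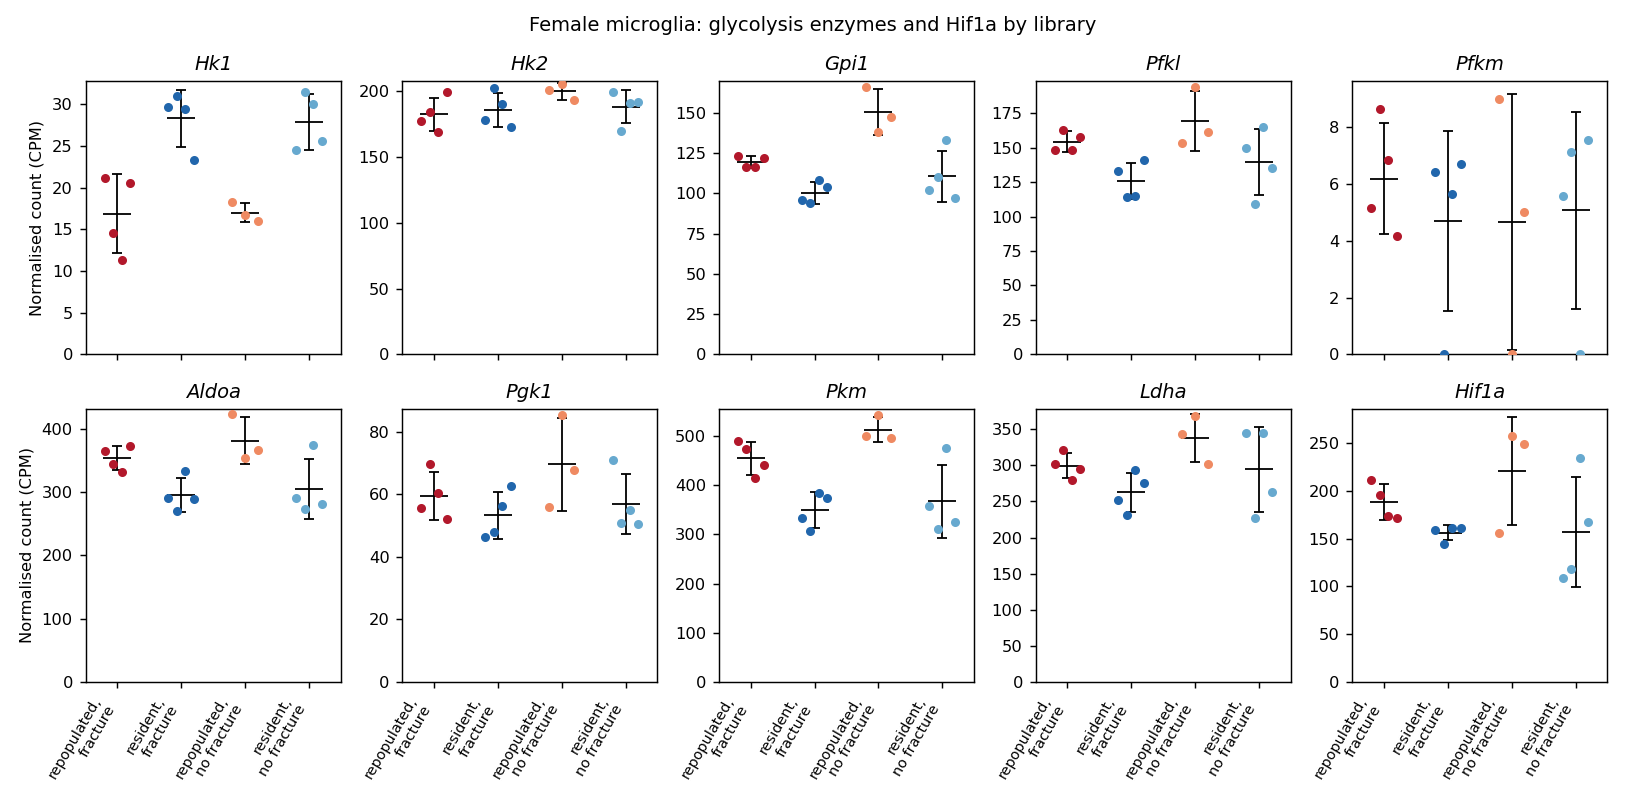
CPM of the 10 genes in each female library (points) with group mean and SD (bars), in repopulated and resident microglia with and without fracture; each panel has its own axis. Pkm lies at 414 to 490 in repopulated and 307 to 385 in resident libraries with fracture, and Hk1 lies lower in repopulated libraries.

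Pyruvate kinase, encoded by Pkm (chr9:59656368-59679375, plus strand, GRCm38), makes pyruvate and ATP in the last step of glycolysis. Without fracture, male Pkm was at 540 and 702 CPM in repopulated and at 390, 384 and 328 CPM in resident microglia. The groups did not overlap, and Pkm rose by 0.76 ± 0.12 on the log2 scale (SE, edgeR adjusted p = 0.000331). In males with fracture it ranged between 447 and 567 CPM in repopulated microglia (median 502, n = 7), against 410, 383, 390, 412 and 356 CPM in resident microglia. Again every repopulated library lay above every resident one, and Pkm rose by 0.40 ± 0.08 (SE, edgeR adjusted p = 0.00313). All 17 fits that left out 1 male library kept both calls, with adjusted p up to 0.0118 with and 0.0226 without fracture by edgeR. Without male repopulated with fracture replicate 1 the values were 0.41 with and 0.76 without fracture (edgeR adjusted p = 0.00272 and 0.000286).

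The male labels carry V numbers that form separate runs in the fracture groups. Repopulated libraries V67 to V69 had 485, 502 and 554 CPM of Pkm, and resident libraries V64 to V66 had 410, 383 and 390 CPM. Repopulated V99 to V102 had 485, 447, 562 and 567 CPM, and resident V109 and V110 had 412 and 356 CPM, so neither run showed an overlap. With only V64 to V79 in the fit, the Pkm log2 fold change with fracture was 0.38 ± 0.11 (SE) and did not pass (edgeR adjusted p = 0.132), and 0 of the 10 genes were called.

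In females without fracture Pkm was at 501, 543 and 496 CPM in repopulated and at 358, 312, 475 and 325 CPM in resident microglia. The groups did not overlap, the closest resident library being replicate 3, and Pkm rose by 0.48 ± 0.12 (SE, edgeR adjusted p = 0.049). Of the 15 fits that left out 1 female library, 1 kept the call, the one without resident replicate 3, where it was 0.63 (edgeR adjusted p = 0.000977), and the others gave adjusted p up to 0.139 by edgeR. It was also lost with library totals as the scale (0.40, edgeR adjusted p = 0.0695) and with only the compared groups in the fit (0.47, edgeR adjusted p = 0.239). With fracture Pkm was at 490, 473, 414 and 441 CPM in repopulated and at 333, 307, 385 and 375 CPM in resident females. The groups did not overlap, and the log2 fold change of 0.38 ± 0.11 (SE) missed the threshold (edgeR adjusted p = 0.101). It passed without female resident without fracture replicate 3 (0.37, edgeR adjusted p = 0.0147) or with only the compared groups in the fit (0.36, edgeR adjusted p = 0.0265).

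The gene makes M1-type and M2-type enzymes by using 1 of 2 mutually exclusive exons of 167 bases each, and the M2 type is the form found in macrophages and many dividing cells. The exons are shown because they are the coding exons that set the isoforms apart. Both are exon 9 of their transcript in the GRCm38 annotation, on the plus strand, at chr9:59675568-59675734 for Pkm-201 (M2 type) and chr9:59675029-59675195 for Pkm-202 (M1 type). Capitals mark the 64 positions, counted along the ungapped exons, at which they differ, which leaves 61.7% identity. With 1593 coding bases each, the transcripts also differ in length, at 2432 bases for Pkm-201 and 2041 bases for Pkm-202. Reads outside these exons may thus have helped to assign counts to an isoform.
Pkm-201 exon, M2 type: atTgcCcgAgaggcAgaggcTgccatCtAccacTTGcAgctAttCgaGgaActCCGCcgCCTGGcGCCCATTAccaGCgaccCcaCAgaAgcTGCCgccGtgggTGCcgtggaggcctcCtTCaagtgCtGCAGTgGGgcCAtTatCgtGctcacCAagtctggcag
Pkm-202 exon, M1 type: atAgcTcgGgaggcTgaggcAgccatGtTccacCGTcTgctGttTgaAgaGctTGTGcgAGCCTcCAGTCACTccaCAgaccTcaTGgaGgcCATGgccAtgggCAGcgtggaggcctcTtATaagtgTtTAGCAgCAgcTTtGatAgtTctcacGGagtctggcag
Pkm-201 held 90.6 ± 1.6% of the Pkm counts in females (SD, n = 15) and 92.7 ± 1.41% in males (SD, n = 17). Pkm-202 held 5.89 ± 1.13% in females (SD, n = 15) and 6.45 ± 1.43% in males (SD, n = 17). Of the Pkm transcripts, only Pkm-201 was called in any comparison. Without fracture, male Pkm-201 was at 507 and 656 CPM in repopulated and at 349, 354 and 309 CPM in resident microglia, a rise of 0.79 ± 0.12 (SE, edgeR adjusted p = 0.00176 over all transcripts, of which 2.17% were called). In males with fracture it rose by 0.36 ± 0.08 (SE, edgeR adjusted p = 0.0341, with 1.16% of all transcripts called). That call lay near the threshold and was lost in 9 of 17 fits that left out 1 library, each time a repopulated (replicates 2, 3, 6 and 7) or resident (replicates 1 to 5) library with fracture (edgeR adjusted p 0.0544 to 0.109), and also with V64 to V79 only (edgeR adjusted p = 0.411) or a V-number term (edgeR adjusted p = 0.0533). The call of Pkm-201 without fracture was lost without repopulated replicate 2 (0.59, edgeR adjusted p = 0.0678). Pkm-202 in that comparison had a log2 fold change of 0.66 ± 0.20 (SE) that did not pass (edgeR adjusted p = 0.162). No transcript of the 10 genes was called in females, where 0.244% of all transcripts were called with and 0.181% without fracture. The test of a transcript's share in its gene's counts by edgeR did not recover known changes on simulated data, so its 0 calls among these transcripts are not read as a result, with 0.0544% and 0.129% of all transcripts called in females with and without fracture and 0.0257% and 0.146% in males with and without fracture. By limma the share was called for 0 of them, with 0.0951% and 0.156% of all transcripts called in females and 0.471% and 0.0942% in males, in the same order.

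Ldha (chr7:46841475-46855627, plus strand, GRCm38) encodes the lactate dehydrogenase subunit that favours lactate formation. In males without fracture it was at 307 and 411 CPM in repopulated and at 260, 231 and 259 CPM in resident microglia. The groups did not overlap, and Ldha rose by 0.52 ± 0.12 (SE, edgeR adjusted p = 0.0102). That call rested on the higher repopulated library: without repopulated replicate 2, which leaves 1 repopulated library, the log2 fold change was 0.30. Replicate 2 also had the higher sum of circulating macrophage markers without Apoe, at 1930 CPM against 928 CPM in replicate 1. The part of this in the Ldha value was not tested. With fracture, male Ldha ranged between 258 and 324 CPM in repopulated microglia (median 293, n = 7), against 244, 227, 265, 286 and 253 CPM in resident microglia. The groups overlapped, and the log2 fold change of 0.20 ± 0.08 (SE) did not pass (edgeR adjusted p = 0.207). In females the log2 fold changes were 0.19 ± 0.12 with and 0.20 ± 0.13 without fracture (SE), and neither passed.

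Hif1a (chr12:73901375-73947530, plus strand, GRCm38) is the regulator among the 10. In males without fracture it was at 281 and 227 CPM in repopulated and at 107, 127 and 143 CPM in resident microglia. The groups did not overlap, and Hif1a rose by 1.01 ± 0.21 on the log2 scale (SE, edgeR adjusted p = 0.00427). Of the 17 fits that left out 1 male library, 16 kept this call, and it was lost without repopulated replicate 1 (0.85, edgeR adjusted p = 0.0697). Its most abundant transcript, Hif1a-201, which held 83.1 ± 4.88% of the gene's counts in males (SD, n = 17), rose by 1.03 ± 0.21 in the same comparison (SE, edgeR adjusted p = 0.014). That call was lost without repopulated replicate 1 (edgeR adjusted p = 0.117) or 2 (edgeR adjusted p = 0.0549) or resident replicate 1 (edgeR adjusted p = 0.0663) of the males without fracture. With fracture, male Hif1a ranged between 130 and 235 CPM in repopulated microglia (median 158, n = 7), against 153, 180, 139, 122 and 132 CPM in resident microglia. The groups overlapped, and the log2 fold change of 0.26 ± 0.14 (SE) did not pass (edgeR adjusted p = 0.405). The highest values were those of V101 and V102, and with only V64 to V79 in the fit it was -0.01.

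In females without fracture Hif1a was at 156, 257 and 249 CPM in repopulated and at 109.4, 118, 234 and 167 CPM in resident microglia. The groups overlapped, and the log2 fold change of 0.49 ± 0.23 (SE) did not pass (edgeR adjusted p = 0.326). Without resident replicate 3, the library at 234 CPM, it was 0.74 and passed (edgeR adjusted p = 0.0296), and 4 of the 10 genes were then called. With fracture Hif1a was at 211, 196, 174 and 171 CPM in repopulated and at 159, 144, 161 and 161 CPM in resident females. Every repopulated library lay above every resident one, though the log2 fold change of 0.27 ± 0.21 (SE) did not pass (edgeR adjusted p = 0.698).

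**Figure D4:**
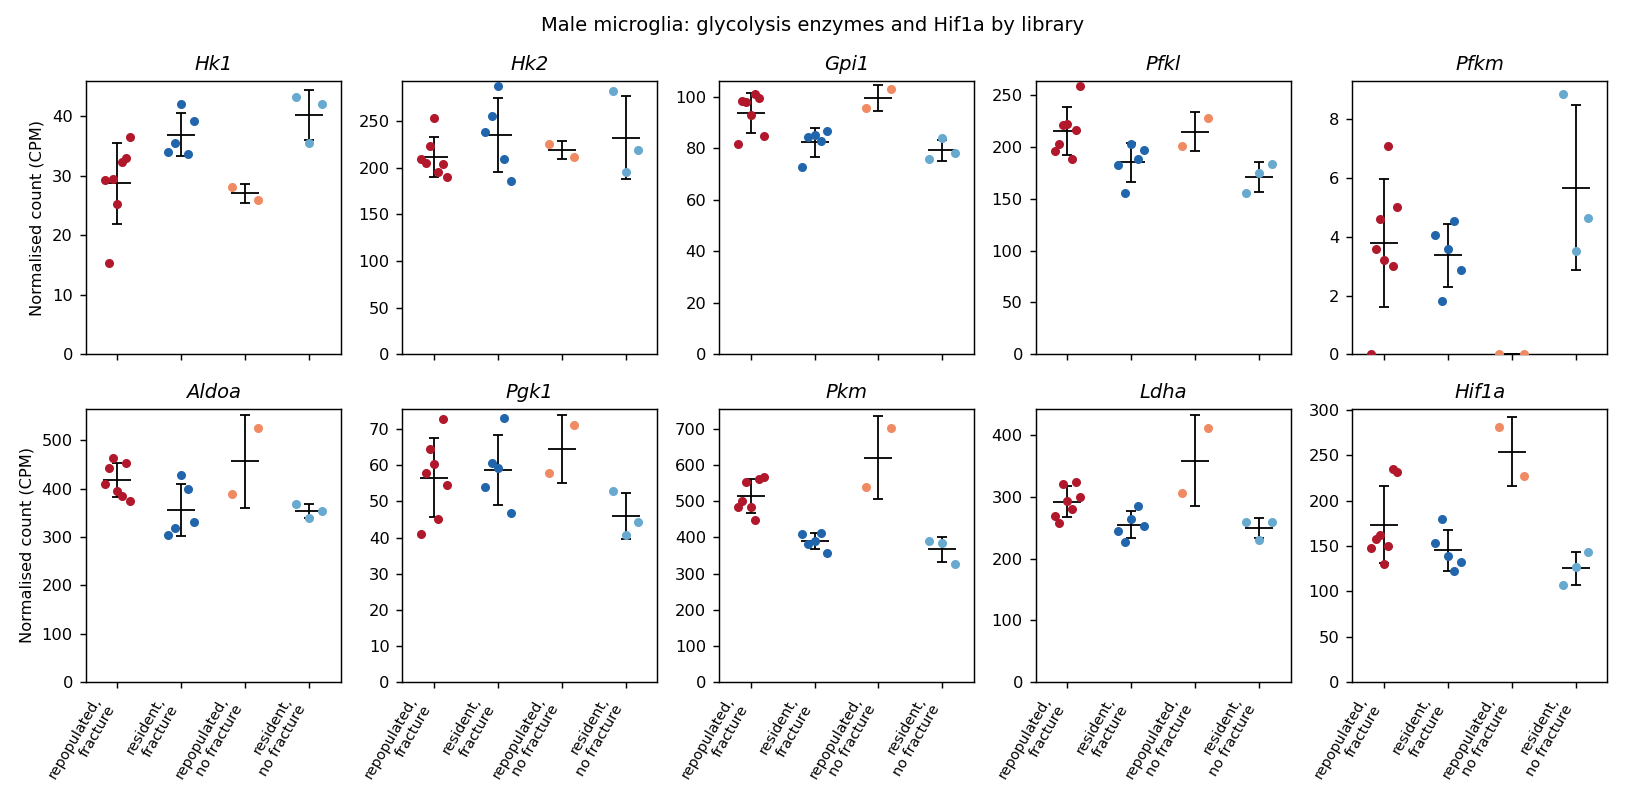
CPM of the 10 genes in each male library (points) with group mean and SD (bars), in repopulated and resident microglia with and without fracture; each panel has its own axis. The 2 repopulated libraries without fracture hold the highest Hif1a value, 281, and the highest Pkm value, 702, and are both at 0 for Pfkm.

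Counted by overlap alone, 4 genes lay wholly higher and 1 wholly lower in repopulated than in resident females with fracture, where 6.26% and 5.64% of all genes did. In females without fracture 2 lay wholly higher and 1 wholly lower, against 6.87% and 6.44% of all genes. In males without fracture 7 lay wholly higher and 2 wholly lower, but with 2 against 3 libraries 17% and 18.4% of all genes did so. In males with fracture, with 7 against 5 libraries, only Pkm lay wholly higher, against 2% of all genes, and 0 of the 10 lay wholly lower, against 1.58%.

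The effect of fracture itself was tested within repopulated and within resident microglia, and 0 of the 10 genes were called in either sex. Of all genes, 0 were called in females in either test by edgeR's quasi-likelihood test, with 1410 of them at an unadjusted p under 0.05 in repopulated and 659 in resident microglia, and 89 and 4 called by DESeq2. In males 0.00833% were called in each. At an unadjusted p under 0.05 by edgeR stood 1 of the 10 in repopulated females (10.5% of all genes), 0 in resident females (4.93%), 4 in repopulated males (8.29%) and 0 in resident males (4.26%). These comparisons share libraries with those of repopulated and resident microglia. In repopulated females Gpi1 was at 123, 116, 116 and 122 CPM with fracture and at 166, 138 and 147 CPM without, a log2 fold change of -0.33 ± 0.10 (SE, edgeR adjusted p = 0.34). It lay wholly lower with fracture, as did Pkm, where 6.2% of all genes did. In repopulated males Hif1a had a log2 fold change of -0.55 ± 0.18 (SE, edgeR adjusted p = 0.415), Ldha of -0.30 ± 0.11 (SE, edgeR adjusted p = 0.461) and Pkm of -0.27 ± 0.10 (SE, edgeR adjusted p = 0.482) with fracture against without. By the same floor, which covers counting error only, Pfkm was at least 28-fold higher in repopulated males with fracture than in those without. In the latter it was at 0, and the difference did not pass (edgeR adjusted p = 0.194). Pfkm passed by DESeq2 (adjusted p = 0.00364) and without male repopulated with fracture replicate 1 (edgeR adjusted p = 0.00434). In resident males the highest log2 fold change was that of Pgk1, at 0.35 ± 0.17 (SE, edgeR adjusted p = 1).

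Whether the difference between repopulated and resident microglia changed with fracture was tested as an interaction, and 0 of the 10 genes passed by edgeR in either sex, where 0 and 0.00833% of all genes passed in females and in males (494 female genes at an unadjusted p under 0.05, and 1 by DESeq2). At an unadjusted p under 0.05 stood 5 of the 10 in males, against 7.38% of all genes. The interactions there were -0.76 ± 0.26 for Hif1a (SE, edgeR adjusted p = 0.477) and -0.36 ± 0.14 for Pkm (SE, edgeR adjusted p = 0.574) on the log2 scale. Ldha was at -0.33 (edgeR adjusted p = 0.643) and Pgk1 at -0.54 (edgeR adjusted p = 0.67). Pfkm, whose fitted value rests on its 0 in both repopulated libraries without fracture, had the lowest p of the 10 (edgeR adjusted p = 0.22), and it passed by DESeq2 (adjusted p = 0.00385) and without male repopulated with fracture replicate 1 (edgeR adjusted p = 0.00388). The calls of Hif1a and Ldha in males without fracture alone are thus not shown to differ from the values with fracture.

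Other genes of glucose use were described in lists around the pathway. By the same test 2.35% and 2.53% of all genes were called in females with and without fracture. In males 4.91% and 7.42% were called with and without fracture. A single call in such a short list is not read as a result about the list. Of 18 listed genes among 26 further glycolysis genes, Tpi1, the triose phosphate isomerase, was the only one called in females without fracture, at 138 CPM in repopulated and 105 CPM in resident microglia (0.40 ± 0.10, SE, edgeR adjusted p = 0.0404). It was also the only one called in males without fracture, at 161 CPM in repopulated and 94 CPM in resident microglia (0.77 ± 0.17, SE, edgeR adjusted p = 0.00644). In males with fracture Ldhb, the lactate dehydrogenase subunit that favours pyruvate, was the only one called, at 591 CPM in repopulated and 507 CPM in resident microglia (0.22 ± 0.06, SE, edgeR adjusted p = 0.0422), and in females with fracture 0 were. The median log2 fold change of these genes was 0.08, 0.05, 0.08 and 0.2 in females with and without fracture and males with and without fracture. Gapdh, a glycolysis enzyme often used as a loading control, had log2 fold changes of 0.06, 0.08, 0.09 and 0.28 in that order, and none passed.

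Among 9 listed sugar and lactate transporters, Slc2a5, the fructose transporter GLUT5 and a microglia-enriched gene, fell in all 4 comparisons of repopulated with resident microglia. It averaged 517 CPM in repopulated and 777 CPM in resident females with fracture (-0.59 ± 0.14, SE, edgeR adjusted p = 0.0478) and 336 CPM in repopulated and 658 CPM in resident females without fracture (-0.97 ± 0.16, SE, edgeR adjusted p = 0.00979). In males it averaged 502 CPM in repopulated and 833 CPM in resident microglia with fracture (-0.73 ± 0.12, SE, edgeR adjusted p = 0.00132), and 349 CPM in repopulated and 908 CPM in resident microglia without fracture (-1.38 ± 0.20, SE, edgeR adjusted p = 0.000288). Slc2a6, a GLUT6 transporter of macrophages, rose in males, to 183 CPM in repopulated against 25.6 CPM in resident microglia without fracture (2.84 ± 0.26, SE, edgeR adjusted p = 3.1e-06) and to 107 CPM in repopulated against 30.9 CPM in resident microglia with fracture (1.79 ± 0.17, SE, edgeR adjusted p = 1.22e-05). In females its log2 fold changes of 1.14 ± 0.29 with and 0.99 ± 0.31 without fracture did not pass (SE, edgeR adjusted p = 0.0619 and 0.128). Slc16a3, the lactate exporter MCT4, rose in males without fracture by 0.46 ± 0.14 (SE, edgeR adjusted p = 0.047), and the main glucose transporter Slc2a1 passed in none of the 4 comparisons.

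Of 13 listed genes of pyruvate entry into mitochondria, Pdk1, a kinase that shuts pyruvate dehydrogenase, rose in males with fracture (0.42 ± 0.10, SE, edgeR adjusted p = 0.0128), and Pdk2, another such kinase, fell by 0.68 in males without fracture (SE 0.21, edgeR adjusted p = 0.0479). None of 8 listed pentose phosphate genes passed in any of the 4 comparisons. Of 14 listed genes of the HIF pathway, the coactivator gene Ep300 passed in males without fracture (0.57 ± 0.17, SE, edgeR adjusted p = 0.0434), and none passed in the other 3 comparisons. The hypoxia targets outside glycolysis had medians of 0.14 and 0.26 in females with and without fracture and of 0.1 and 0.2 in males with and without fracture. Of 16 listed in females, Hmox1, a haem-degrading stress enzyme, was the only one called, and it rose without fracture (0.82 ± 0.17, SE, edgeR adjusted p = 0.0219) and with fracture (0.70 ± 0.16, SE, edgeR adjusted p = 0.0336). Of 15 listed in males, Hmox1 rose without fracture (0.78 ± 0.22, SE, edgeR adjusted p = 0.0347), while Bnip3l, a mitophagy receptor, fell by 0.65 (SE 0.14, edgeR adjusted p = 0.00629), and with fracture Pdk1 was the only one called. Pdk1 is in both lists, so that is the same call as the one given above.

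**Figure D5:**
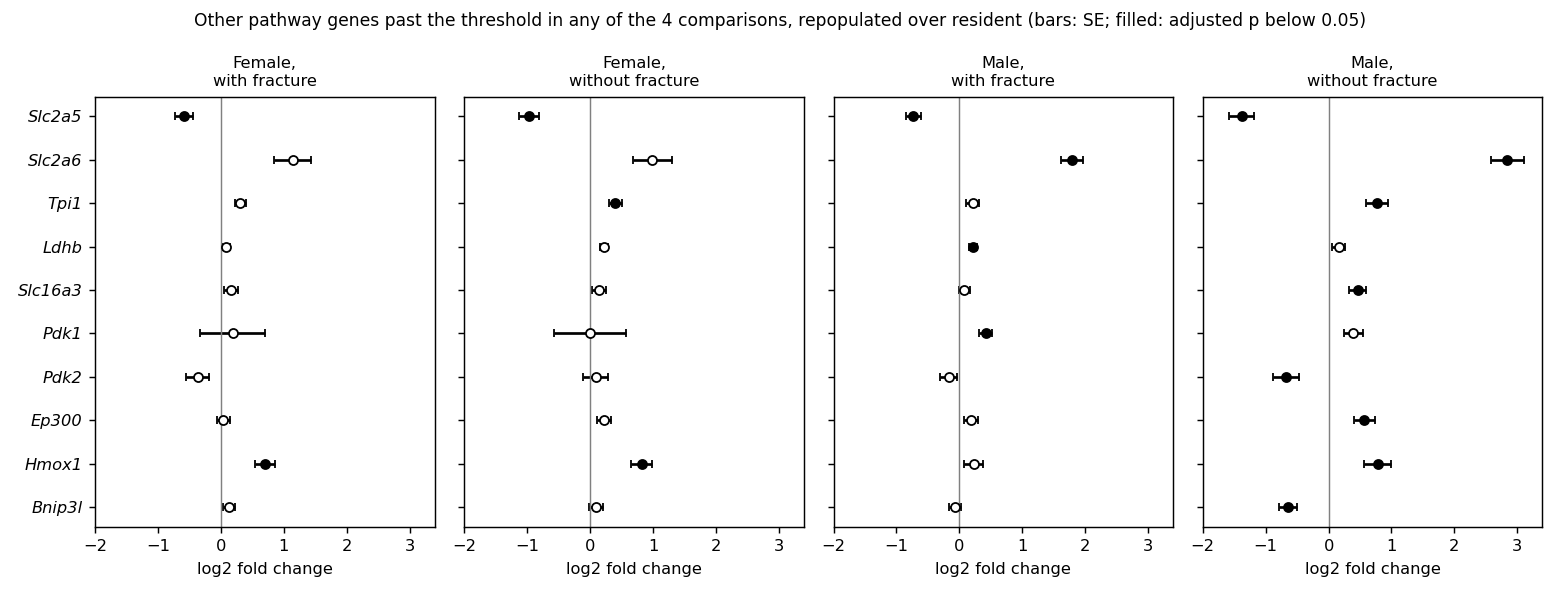
Log2 fold change, repopulated over resident, with its standard error (bars), in the 4 comparisons. Of 6 lists around the glycolysis genes, only genes that passed an adjusted p under 0.05 in any of the 4 are shown. Filled points passed in the comparison of their panel. Slc2a6 lies at up to 2.84 and Slc2a5 down to -1.38.

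The promoters of the genes were read for the core of the hypoxia response element, ACGTG or GCGTG on either strand, with CACGTG counted on each strand. RefSeq windows of 300 bases (250 before to 50 after a start, build GRCm38.p6) held at least 1 match at 13 of the 18 starts of the 10 genes (72.2%), and at 14380 of 32851 starts of all genes (43.8%). The 18 are not separate: windows of 2 Aldoa starts overlap and count the same match, as do windows of 2 Pfkm starts. The counts per gene below have no share over all genes beside them. In the window nearest to the start of each gene's most counted transcript, 8 genes had a match and 2, Gpi1 and Pkm, had none. Ldha had 7, Hk1 had 5 and Hif1a itself had 3. The windows of 4 genes, picked after their values were seen, are shown with the matches in capitals, at chr9:59656326-59656625 (plus strand) for Pkm, chr12:73907617-73907916 (plus strand) for Hif1a, chr7:46845554-46845853 (plus strand) for Ldha and chr10:62340372-62340671 (minus strand, read 5′ to 3′ along the gene) for Hk1.
Pkm promoter: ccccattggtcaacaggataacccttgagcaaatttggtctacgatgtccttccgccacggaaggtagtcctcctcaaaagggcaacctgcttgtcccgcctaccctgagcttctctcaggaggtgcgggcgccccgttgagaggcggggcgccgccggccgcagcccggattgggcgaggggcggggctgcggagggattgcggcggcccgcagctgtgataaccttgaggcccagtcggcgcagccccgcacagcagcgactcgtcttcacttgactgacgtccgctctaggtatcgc
Hif1a promoter: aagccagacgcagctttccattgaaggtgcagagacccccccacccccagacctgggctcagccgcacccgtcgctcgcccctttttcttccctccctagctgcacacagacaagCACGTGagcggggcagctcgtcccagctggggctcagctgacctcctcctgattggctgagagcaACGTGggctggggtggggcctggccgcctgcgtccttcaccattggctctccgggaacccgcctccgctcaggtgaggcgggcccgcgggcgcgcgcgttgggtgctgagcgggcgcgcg
Ldha promoter: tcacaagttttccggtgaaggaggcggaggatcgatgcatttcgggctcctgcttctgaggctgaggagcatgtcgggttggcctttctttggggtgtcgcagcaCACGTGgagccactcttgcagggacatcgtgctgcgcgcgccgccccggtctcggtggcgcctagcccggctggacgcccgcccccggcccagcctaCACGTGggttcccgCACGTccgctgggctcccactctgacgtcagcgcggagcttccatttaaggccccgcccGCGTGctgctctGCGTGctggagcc
Hk1 promoter: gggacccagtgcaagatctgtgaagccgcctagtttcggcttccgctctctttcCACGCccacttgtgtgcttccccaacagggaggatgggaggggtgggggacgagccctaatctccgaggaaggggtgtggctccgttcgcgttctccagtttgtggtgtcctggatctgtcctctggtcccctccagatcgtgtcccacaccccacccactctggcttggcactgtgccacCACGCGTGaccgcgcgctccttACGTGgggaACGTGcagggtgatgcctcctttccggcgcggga
Pkm had 2 matches at another start, in the window chr9:59656977-59657276 (plus strand), and 9 of the 10 genes had a match at some start. A match describes the letters only.

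Within groups the 10 genes did not all vary alike, though some pairs did in both tables. Over the 45 pairs of the 10 genes, Pearson's r of the deviations from the group means of log2 CPM had a median of 0.22 in females (range -0.54 to 0.89, 15 libraries) and of 0.18 in males (range -0.28 to 0.68, 17 libraries), and 11 female and 6 male pairs were above 0.5. The pairs above 0.5 in females and in males alike were those of Ldha with Pkm, Aldoa, Pgk1 and Pfkl. Their r was 0.81, 0.6, 0.58 and 0.74 in females and 0.6, 0.68, 0.63 and 0.54 in males, in that order. Other enzyme pairs differed between the tables, such as Aldoa and Pgk1, at -0.18 in females and 0.57 in males. These r have no value over pairs of all genes beside them. The most alike genes were sought above a minimum mean level. The 10 genes, the gene lists around them and predicted genes were left out, so no gene of those lists could be named. The genes whose deviations were most like those of Pkm were Rpl19 (r = 0.93) and Rpl15 (r = 0.91) in females, and Bcl2a1d (r = 0.88) and Nup35 (r = 0.86) in males. For Hif1a they were Zzef1 (r = 0.95) and Fnbp4 (r = 0.94) in females, and Arhgap30 (r = 0.89) and Sgpl1 (r = 0.85) in males. For Ldha the closest was H2-M3 in females (r = 0.93) and Tmem87b in males (r = 0.84). The closest gene was a different one in the 2 tables for these 3 genes. The points of each r share libraries and their depth, and the values are descriptions.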

How the data were processed

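Per the submitters' processing notes, reads were trimmed with Trim Galore 0.6.7 and cutadapt 3.4 and processed with STAR 2.7.6a and RSEM 1.3.1 on GRCm38. The deposited tables hold, in 1 table per sex, whole-number estimated counts of each transcript by RSEM, and the authors kept transcripts with at least 10 counts in at least 8 female or 9 male libraries, as the values show. A further deposited column per table holds a row summary of these counts and was not used. Counts were summed per gene identifier, normalised by TMM and tested in 1 model of 4 groups per table with edgeR 4.0.16 (quasi-likelihood, R 4.3.3), with Benjamini-Hochberg adjustment over all genes at a threshold of 0.05. Transcripts were tested likewise. CPM are counts scaled to an equal TMM-adjusted library total. TPM were scaled by GENCODE transcript length, which covered 98.4% of the transcript identifiers. DESeq2 1.42.0, other scalings, left-out libraries and V-number fits were alternatives. The scripts were tested on simulated data. There edgeR's test of transcript shares called transcripts of unchanged genes more often than its threshold allows and recovered few changed ones, so nothing is read from it, and limma 3.58.1 was added after seeing the data. The depth given per library limits low genes such as Pfkm most. Floors cover counting error only. The members and gene lists were chosen with earlier results of these data known. Further genes are named if called in a list or if most like a member. No pair of libraries was identical in either table.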

Additional observations from a re-analysis of the deposited data

Results flagged for a closer look

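Of 50 combinations of a gene and a group of 4 to 7 libraries, 3 held a library far from the others, where chance gives about 1 in 20. Gpi1 was at 72.6 CPM in male resident with fracture replicate 1, against 83.0 to 86.7 CPM in the other libraries of that group (n = 5). Hif1a was at 144 CPM in female resident with fracture replicate 2, against 159 to 161 CPM in the others (n = 4). Pfkm was at 0 in the same female library, against 5.64 to 6.71 CPM in the others (n = 4).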

How the results depend on the processing

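The direction of every called member held under every alternative that gave a value (with a minimum of 50 counts Pfkm was not tested), and the cause of the changed counts below was not tested. Members called, under changes other than leaving out a library, became 0 with only the compared groups, 1 with library totals (Hk1, lower, with Pkm and Gpi1 lost) and 0 with the replicate block in females without fracture (2 as reported, Pkm and Gpi1), 0 with the block in females with fracture (1 as reported), 0 with V64 to V79 only in males with fracture (1 as reported), 1 by DESeq2 (Pfkm) for fracture in repopulated males and 1 by DESeq2 (Pfkm) and 1 with the block for the male interaction (0 as reported, the block call being Hif1a, -0.99, edgeR adjusted p = 0.0309). Member transcripts called in males with fracture became 0 with the block, with V64 to V79 only and with a V-number term (1 as reported). Leaving out 1 library each gave 0 to 4 members in females without fracture, 0 to 2 with fracture, 2 to 4 in males without fracture, 1 with fracture, and 0 to 1 for fracture in repopulated males and for the male interaction. Member transcripts were then 0 to 2 in females without fracture, 0 to 4 in males without fracture, and 0 to 1 in males with fracture, for fracture in repopulated males and for the male interaction. All genes called became 676 by DESeq2, 0 with only the compared groups and 143 with the block in females without fracture (338), and 680, 629 and 184 in females with fracture (315). They became 293 with the block and 80 with V64 to V79 in males with fracture (589). For fracture they became 89 by DESeq2 and 86 with only the compared groups in repopulated females (0) and 4 by DESeq2 in resident females (0), with 1 by DESeq2 for the female interaction (0). For fracture in repopulated males (1) they became 39 by DESeq2, 0 with only the compared groups, 0 with a minimum of 50 counts, 56 with the block, 40 with V64 to V79 and 2 with a V-number term. In resident males (1) they became 12 by DESeq2, 5 with only the compared groups and 2 with the block. For the male interaction (1) they became 19 by DESeq2, 2 with a minimum of 50 counts, 57 with the block, 25 with V64 to V79 and 0 with a V-number term. Leaving out 1 library each gave 51 to 612 in females without fracture, 106 to 488 with fracture, 0 to 1 for fracture in resident females and for the female interaction, 414 to 949 in males without fracture, 400 to 716 with fracture, 1 to 29 for fracture in repopulated and 1 to 2 in resident males, and 0 to 14 for the male interaction. Same-numbered deviations correlated at -0.31 to 0.21 over all comparisons. In repopulated against resident females this was -0.03 to 0.13 with fracture (-0.13 to 0.04 for other numbers) and 0.04 to 0.21 without (-0.24 to 0.3). The own number gave the highest r for 2 of 4 and 2 of 3 repopulated females, with and without fracture. In males it did so for 0 of 5 and 1 of 2. These values do not settle whether the numbers pair the libraries, so the block is not read as a paired result. The 2 to 7 libraries per group limit the precision. Pfkm, listed by 1 transcript and at 0 in single libraries of several groups, has no firm level.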
